A study of Mus musculus with 2 samples.

Results

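The genes described here encode the proteins of the mitochondrial ribosome that carry Mrpl or Mrps symbols. They were chosen by name, although with earlier results of these data known. The set takes every gene whose symbol begins with Mrpl or Mrps and a digit, pseudogenes left out. A limit of at least 25 unique molecular identifiers (UMIs, 1 per captured RNA molecule) over both libraries was set. That gave 78 of 32285 gene identifiers, and no symbol of this form missed the limit. Of the 78 genes, 26 encode proteins of the small subunit and 51 of the large subunit. The remaining gene, Mrps36, keeps a ribosomal symbol although its product is a component of the oxoglutarate dehydrogenase complex.

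The data are single-cell RNA counts from plantaris, a calf muscle, of 5 male C57BL/6J mice at 12 weeks of age. The tenotomy library pooled the muscles of 1 side, taken 4 days after tenotomy, the cutting of a tendon. The sham library pooled the opposite muscles of the same mice, taken as the control. Collagenase released mononuclear cells, so muscle fibres were not sampled, and living cells were sorted by Calcein AM uptake and propidium iodide exclusion. The labels do not name the tendon.

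Mitochondria carry their own small genome, which encodes core proteins of the respiratory chain, and they translate those messages on a dedicated ribosome. All proteins of that ribosome are encoded in the nucleus, made in the cytosol and imported. Many descend from the bacterial ribosome, and others were added during the evolution of mitochondria. In muscle, stem cells that leave quiescence and begin to differentiate are known to build up mitochondria.

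The tenotomy library held 94556283 UMIs in 11950 barcodes and the sham library 47781353 UMIs in 8463 barcodes, and 33 barcode sequences occurred in both. After filters on genes, UMIs and mitochondrial share, 11237 tenotomy cells (median 5964 UMIs) and 7738 sham cells (median 4942.5 UMIs) were kept. Classes were rebuilt from marker genes, so their names mean "like" that type and are not the authors' annotation. A class was given to 85.4% of the tenotomy cells and 89.2% of the sham cells. A further 897 tenotomy cells and 515 sham cells were 1 marker short of a class, and 344 and 437 carried markers of more than 1 class and were left out. At least 2 UMIs over 12 cycle genes were found in 19.6% of the kept tenotomy cells and 1.64% of the kept sham cells, and such cells are called cycling. With a single library on each side, effects of the treatment and of the library cannot be told apart, and no p-value is given. Bracketed ranges are exact 95% intervals, and they cover counting error only. Counts of genes with an interval above or below 1 have no count over all measured genes beside them.

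Over all barcodes the 78 genes took 394894 UMIs in the tenotomy library (0.418% of its total) and 126701 UMIs in the sham library (0.265%). Single genes had between 626 UMIs (Mrps2) and 25538 UMIs (Mrpl33) over both libraries, with a median of 5832.5. The 5 most counted genes held 18.8% of the UMIs of the set. The genes lie on 17 chromosomes, with at most 11 on 1 chromosome. The transcripts are therefore spread widely, and no single gene carries the summed values given below.

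The summed share of mitochondrial ribosomal protein transcripts was highest in myogenic-like cells of the tenotomy library. It was 0.744% (0.737 to 0.751) in 244 cycling myogenic-like tenotomy cells and 0.555% (0.543 to 0.567) in 135 tenotomy cells of that class that were not cycling, against 0.233% (0.227 to 0.240) in 325 sham cells that were not cycling. The sham class was the lowest of all classes with a value. Cycling myogenic-like sham cells were too few to give one. In non-cycling cells the ratio of tenotomy to sham was 2.38 (2.30 to 2.46). The mean number of these UMIs per cell was 178 in cycling and 61.3 in non-cycling tenotomy cells, against 16.3 in sham cells.

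**Figure D1:**
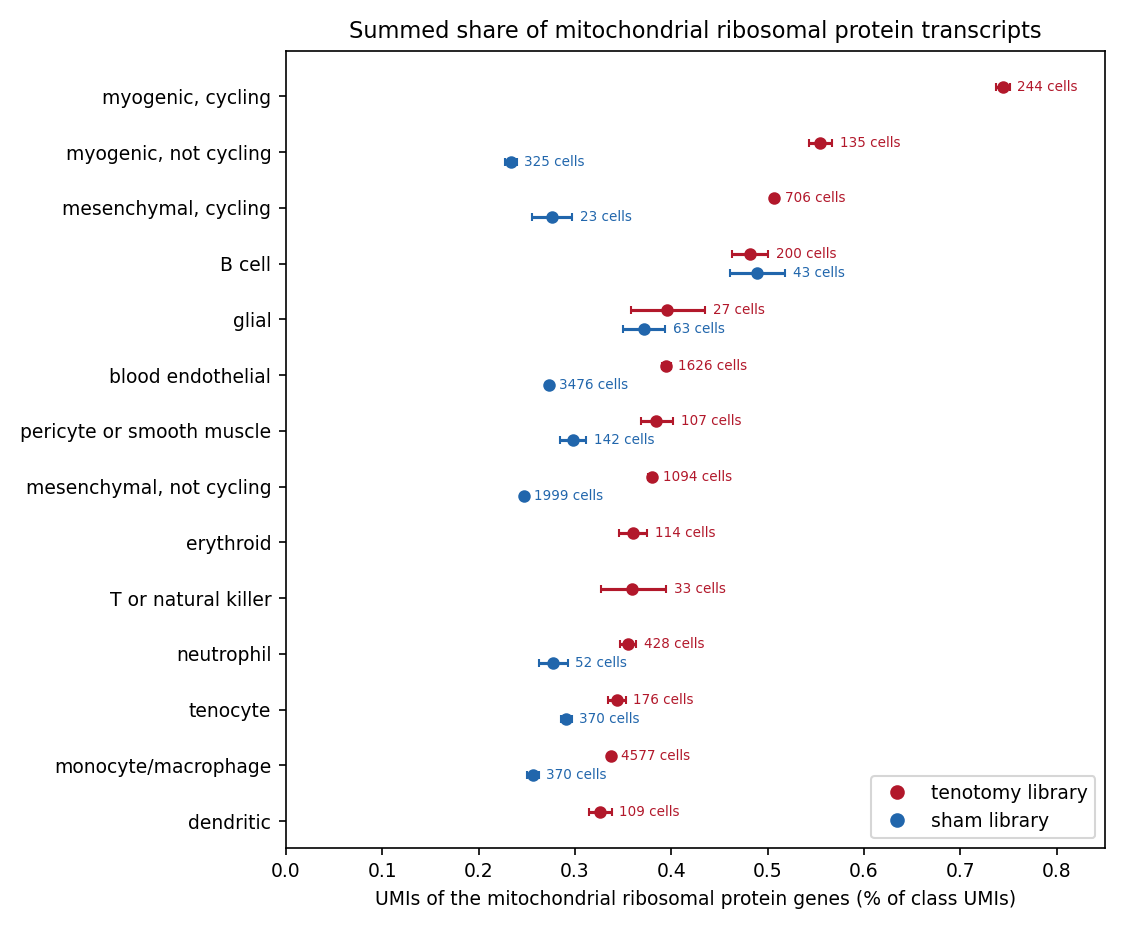
The horizontal axis gives the UMIs of the 78 mitochondrial ribosomal protein genes as a percentage of all UMIs of a class, and each class has its tenotomy value (red) above its sham value (blue) where at least 20 cells were found. Bars are exact 95% intervals for counting error; myogenic-like cells span the widest range, with 0.744% and 0.555% in tenotomy cells and 0.233% in sham cells.

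Mesenchymal-like cells, the connective tissue cells of the muscle, followed the same order. Their share was 0.507% (0.504 to 0.510) in 706 cycling tenotomy cells and 0.380% (0.376 to 0.383) in 1094 non-cycling tenotomy cells, against 0.247% (0.245 to 0.249) in 1999 non-cycling sham cells. The ratio in non-cycling cells was 1.54 (1.52 to 1.56). Only 23 sham cells were cycling, and their share was 0.276% (0.256 to 0.297).

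Over all depths the other compared classes differed less. Blood endothelial-like cells had 0.395% in 1626 tenotomy cells, against 0.273% in 3476 sham cells. Monocyte/macrophage-like cells had 0.338% in 4577 tenotomy cells, against 0.256% in 370 sham cells. Pericyte or smooth muscle-like cells had 0.385% in 107 tenotomy cells, against 0.298% in 142 sham cells. In tenocyte-like cells, which make tendon matrix, the share was 0.343% in 176 tenotomy cells, against 0.291% in 370 sham cells. Neutrophil-like cells had 0.355% in 428 tenotomy cells, against 0.277% in 52 sham cells. The 2 libraries' intervals did not overlap in any of these classes.

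Depth differed within classes, and the share of these genes moved with it. When only cells of 4000 to 12000 UMIs were compared, a choice made after the data were seen, the share of non-cycling myogenic-like cells was 0.425% (0.406 to 0.444) in 62 tenotomy cells, against 0.230% (0.224 to 0.237) in 280 sham cells. In non-cycling mesenchymal-like cells it was 0.311% in 513 tenotomy cells, against 0.239% in 1509 sham cells. The ratios were then 1.84 and 1.30. In blood endothelial-like cells the depth-limited ratio was 1.45, the same as over all depths. In monocyte/macrophage-like cells it was 1.40, with 0.324% in 3330 tenotomy cells, against 0.231% in 209 sham cells. In neutrophil-like cells it was 2.42, with 0.277% in 85 tenotomy cells, against 0.114% in 22 sham cells, while over all depths it was 1.28. The order of classes by ratio thus changed with depth. Within this range the neutrophil-like ratio lay above the myogenic-like one. The mesenchymal-like ratio lay below the endothelial-like and macrophage-like ones.

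Marker genes listed for other classes were also unequal between the libraries within some classes. Marker genes of pericytes and smooth muscle summed to 2261 counts per 1000000 UMIs (CPM) in non-cycling myogenic-like tenotomy cells, against 238 CPM in sham cells. Erythroid markers summed to 24.5 CPM in pericyte or smooth muscle-like tenotomy cells, against 12014 CPM in sham cells. Dendritic markers, which include antigen presentation genes, summed to 12005 CPM in monocyte/macrophage-like tenotomy cells, against 20893 CPM in sham cells. In pericyte or smooth muscle-like and monocyte/macrophage-like sham cells these sums exceeded those of the class's own markers that were not used to define it. Those own markers summed to 7717 and 16500 CPM in that order. Whether the transcripts listed for other classes came from other cells, and their part in the shares, was not tested.

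After each cell was thinned to 1000 UMIs, so that depth was equal, non-cycling myogenic-like cells held on average 5.15 UMIs of the set in 134 tenotomy cells, against 2.26 in 325 sham cells. Cycling myogenic-like tenotomy cells held 7.30 in 244 cells. The middle 80% of cells lay between 4 and 11 UMIs in cycling tenotomy cells and between 2 and 9 in non-cycling tenotomy cells, against 0 to 4 in sham cells. The whole distribution was thus shifted, with overlap between the libraries. In mesenchymal-like cells the thinned means were 4.97 in 705 cycling and 3.47 in 1063 non-cycling tenotomy cells, against 2.54 in 1951 non-cycling sham cells. A cell with none of these UMIs after thinning was seen in 3.73% of non-cycling myogenic-like tenotomy cells, against 10.8% of sham cells. Before thinning those percentages were 0 and 0.308.

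**Figure D2:**
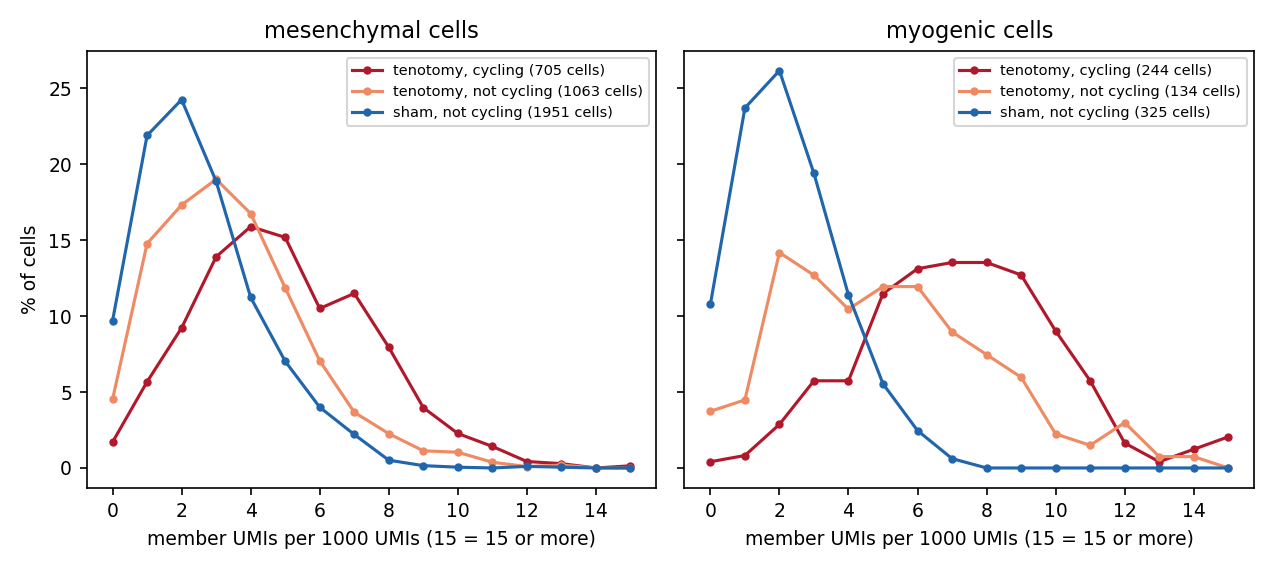
The horizontal axis gives UMIs of the 78 genes in a cell thinned to 1000 UMIs and the vertical axis the percentage of cells, for mesenchymal-like (left) and myogenic-like cells (right). In both panels the means fall in the order cycling tenotomy, non-cycling tenotomy and non-cycling sham cells: 4.97, 3.47 and 2.54 in the left panel, 7.30, 5.15 and 2.26 in the right panel.

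Gene by gene, the difference in non-cycling myogenic-like cells was broad. Of the 78 genes, 76 reached the limit of 25 UMIs set for a fold in a class, and 60 of these were at least 2-fold higher in tenotomy cells. Of all genes measured in that class, 23.4% passed 2-fold upwards and 12.3% downwards. None of the 76 was at least 2-fold lower. The median fold was 3.03, against 1.19 over all measured genes, so the typical gene of this class was itself shifted by 0.25 on the log2 scale. The interval lay wholly above 1 for 69 genes and wholly below 1 for 1. The summed ratio was 2.38, and 2.58 without the 5 most counted genes. With cells of 4000 to 12000 UMIs only, 61 genes reached the limit, their median was 1.90 and 25 were at least 2-fold higher, beside 15.5% of all genes measured there, whose median was 1.17. After thinning every cell to 1000 UMIs only 15 genes reached the limit, their median was 1.91 and 7 were at least 2-fold higher, beside 15.3% of all genes measured there. Fewer genes were measured in both settings, and the medians are over those genes. The share of measured genes at least 2-fold higher was also smaller, at 41% and 46.7%, against 78.9% over all depths.

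**Figure D3:**
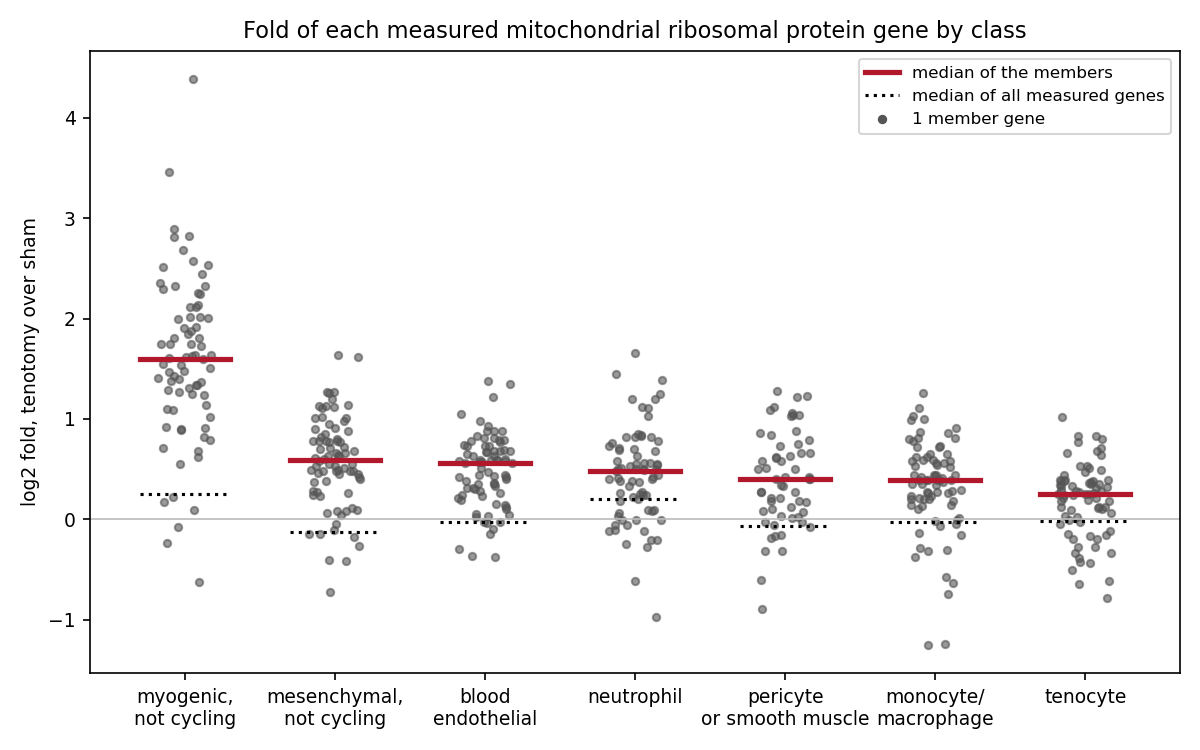
Each grey point is the log2 fold (tenotomy over sham) of 1 mitochondrial ribosomal protein gene with at least 25 UMIs in the class; the red line is their median and the dotted line the median of all measured genes. Classes run from the largest to the smallest median of the set, and in each class the red line lies above the dotted one, with myogenic-like cells at a median fold of 3.03.

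Several large subunit genes had the largest myogenic differences. Mrpl34, whose product has a bacterial counterpart, was at 63.1 CPM in non-cycling myogenic-like tenotomy cells, against 5.74 CPM in sham cells, a fold of 11 (6.12 to 21.4). Mrpl18, the relative of the bacterial protein that holds 5S RNA, was at 77.8 CPM in tenotomy cells, against 11 CPM in sham cells, a fold of 7.05 (4.55 to 11.3). Mrpl58, a release factor relative that frees stalled peptides and is also built into the large subunit, was at 75.8 CPM in tenotomy cells, against 13.2 CPM in sham cells, a fold of 5.72 (3.8 to 8.87). These intervals all lie above the median of the set. Mrpl53, a mitochondria-specific protein, was at 121 CPM in tenotomy cells, against 24.3 CPM in sham cells, and Mrpl15, with a bacterial counterpart, was at 77.8 and 15.9 CPM in tenotomy and sham cells. The point estimate was largest for Mrpl22, a protein that lines the exit tunnel in bacteria, with 55 UMIs in tenotomy cells and 4 in sham cells, a fold of 20.9 (7.71 to 79.4). So few sham UMIs leave that fold poorly fixed. Mrpl19, another large subunit protein with a bacterial counterpart, was at 29.5 CPM in tenotomy cells and 3.97 CPM in sham cells, from 9 sham UMIs.

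Small subunit genes with large differences in the same class included 3 that encode mitochondria-specific proteins. Mrps22 was at 34.2 CPM in tenotomy cells, against 4.86 CPM in sham cells, a fold of 7.05 (3.63 to 15). Mrps35 was at 25.5 CPM in tenotomy cells, against 3.97 CPM in sham cells, a fold of 6.42 (3.05 to 15.1). Mrps31 was at 28.2 CPM in tenotomy cells, against 4.86 CPM in sham cells, a fold of 5.80 (2.94 to 12.5). All 3 rest on 9 to 11 sham UMIs. By origin, the median fold in this class was 3.33 for 30 measured mitochondria-specific proteins and 3.02 for 45 with a bacterial counterpart, and by subunit 2.90 for 25 small and 3.09 for 50 large subunit genes. The medians lie close to one another, well within the quartiles of the set, 2.18 and 4.11.

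A few genes did not share the myogenic difference. Mrps6, a small subunit protein with a bacterial counterpart, was at 58.4 CPM in non-cycling tenotomy cells, against 90.0 CPM in sham cells, a fold of 0.648 (0.498 to 0.837). It was the only gene of the set whose interval lay below 1 there. Mrps28 was at 58.4 CPM in tenotomy cells, against 68.9 CPM in sham cells (fold 0.847, 0.644 to 1.11). Mrpl48 was at 99.3 CPM in tenotomy cells, against 105 CPM in sham cells (fold 0.949, 0.768 to 1.17). Both intervals hold 1. Mrpl23 and Mrpl24, relatives of bacterial proteins at the tunnel exit, had folds of 1.07 (0.902 to 1.26) and 1.13 (0.907 to 1.40), and Mrps30, a mitochondria-specific protein of the large subunit despite its symbol, had 1.17 (0.701 to 1.93). Mrpl52, the second most counted gene of the set, was at 217 CPM in tenotomy cells, against 148 CPM in sham cells, a fold of 1.47 (1.26 to 1.72). Mrpl33, the most counted, was at 182 CPM in tenotomy cells, against 85.6 CPM in sham cells, a fold of 2.12 (1.76 to 2.57). The other most counted genes, Mrpl20, Mrpl30, Mrps14, Mrps24 and Mrps33, had folds between 2.03 and 3.02, so each differed but stayed at or below the median of the set.

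As examples of the start regions, 4 windows of 300 bases are given from RefSeq on GRCm38.p6, each from 250 bases before to 50 bases after the annotated start, 5′ to 3′ on the gene's strand. They were picked by motif: Mrps22, Mrpl58 and Mrpl12, all higher in myogenic-like tenotomy cells, hold 1 motif each, and Mrps6, which was lower, holds none. The windows of Mrpl22 and Mrpl34, the genes with the highest folds in that class, also hold none. Windows were found for 69 of the 78 genes, 75 in all, and were searched on both strands for CCGGAAGT (ETS factors, including GABP), AANATGGCG (YY1), CACGTG (E-box) and the NRF1 motif; capitals mark a match. In the 4 windows no base lies in more than 1 match. They lie at chr9:98601630-98601929 on the minus strand (Mrps22, with the ETS motif), chr11:115403502-115403801 on the plus strand (Mrpl58, with the YY1 motif), chr11:120484387-120484686 on the plus strand (Mrpl12, with the NRF1 motif) and chr16:92058086-92058385 on the plus strand (Mrps6, with none of the 4).
Mrps22: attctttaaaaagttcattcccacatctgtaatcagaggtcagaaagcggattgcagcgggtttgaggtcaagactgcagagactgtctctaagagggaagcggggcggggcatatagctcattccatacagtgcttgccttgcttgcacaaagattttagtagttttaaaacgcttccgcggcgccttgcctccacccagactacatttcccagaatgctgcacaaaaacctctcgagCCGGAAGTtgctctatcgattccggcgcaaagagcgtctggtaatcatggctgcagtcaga
Mrpl58: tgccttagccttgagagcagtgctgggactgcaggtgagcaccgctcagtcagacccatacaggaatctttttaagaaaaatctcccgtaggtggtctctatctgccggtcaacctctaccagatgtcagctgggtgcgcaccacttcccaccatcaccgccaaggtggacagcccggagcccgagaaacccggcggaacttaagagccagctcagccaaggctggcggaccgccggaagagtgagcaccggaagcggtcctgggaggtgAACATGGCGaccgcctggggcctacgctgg
Mrpl12: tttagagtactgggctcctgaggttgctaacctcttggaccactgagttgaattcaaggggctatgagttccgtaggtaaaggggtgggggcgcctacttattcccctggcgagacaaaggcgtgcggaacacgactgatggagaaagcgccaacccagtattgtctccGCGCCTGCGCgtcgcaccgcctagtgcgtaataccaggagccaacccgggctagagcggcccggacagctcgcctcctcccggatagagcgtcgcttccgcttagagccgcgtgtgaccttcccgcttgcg
Mrps6: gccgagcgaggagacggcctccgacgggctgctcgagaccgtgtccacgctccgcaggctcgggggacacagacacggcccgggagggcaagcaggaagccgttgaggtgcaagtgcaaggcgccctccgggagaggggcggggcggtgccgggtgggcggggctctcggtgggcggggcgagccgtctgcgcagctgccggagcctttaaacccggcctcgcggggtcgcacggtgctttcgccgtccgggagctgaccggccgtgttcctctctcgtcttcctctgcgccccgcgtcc

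Among all 75 windows of the set, 16% held the ETS motif, against 5.11% of 21188 windows of other protein-coding genes. The NRF1 motif was in 17.3% of the set's windows and 6.34% of the others, YY1 in 14.7% and 3.08%, and the E-box in 9.33% and 7.83%. The 7 E-box windows belong to 5 genes, since Mrpl2 has 3 of them, and counted by gene the E-box share was 7.25%. The median GC content was 58.7% in the set's windows and 56.3% in the others. These factors are known regulators of nuclear genes for mitochondrial proteins. In non-cycling myogenic-like cells the median fold was 3.74 for 12 genes with the ETS motif and 2.92 for 55 without, 2.62 for 12 with the NRF1 motif and 3.1 for 55 without, 3.12 for 11 with the YY1 motif and 2.91 for 56 without, and 3.78 for 5 with the E-box and 2.91 for 62 without. No test of these differences was made. A match describes the letters of the window and does not show that a factor binds there.

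In non-cycling mesenchymal-like cells all 78 genes were measured, and 14 were at least 2-fold higher in tenotomy cells. In that class 9.41% of all measured genes passed 2-fold upwards and 15.9% downwards. None of the set was at least 2-fold lower. The median fold was 1.5, against 0.918 over all measured genes, a general shift of -0.12 on the log2 scale. The interval lay above 1 for 61 genes and below 1 for 2. With cells of 4000 to 12000 UMIs only, all 78 genes were measured, the median was 1.25 and 3 were at least 2-fold higher, beside 5.98% of all genes measured there, whose median was 0.942. After thinning, 70 genes were measured, the median was 1.31 and 7 were at least 2-fold higher, beside 6.79%.

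Mrpl54 and Mrps18b led the mesenchymal differences. Mrpl54, a mitochondria-specific large subunit protein, was at 118 CPM in non-cycling tenotomy cells, against 37.9 CPM in sham cells, a fold of 3.11 (2.83 to 3.42). Mrps18b, a small subunit protein and 1 of 3 related S18 genes, was at 28.8 CPM in tenotomy cells, against 9.38 CPM in sham cells, a fold of 3.06 (2.53 to 3.73). Its relatives differed less in this class. Mrps18a, whose product sits in the large subunit, was at 48.4 CPM in tenotomy cells, against 33.5 CPM in sham cells, and Mrps18c, in the small subunit, was at 36.2 and 25.8 CPM in tenotomy and sham cells. In myogenic-like cells the folds were 4.34 (2.79 to 6.94) for Mrps18c, 1.76 (1.28 to 2.43) for Mrps18b and 1.73 (1.25 to 2.40) for Mrps18a.

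The other leading mesenchymal genes had folds a little above 2. Mrpl17, a large subunit protein near the tunnel exit in bacteria, was at 87.6 CPM in tenotomy cells, against 36.6 CPM in sham cells (fold 2.40, 2.16 to 2.65). Mrps16, a small subunit protein with a bacterial counterpart, was at 114 CPM in tenotomy cells, against 49.6 CPM in sham cells (fold 2.30, 2.11 to 2.51). Mrpl12, which forms the flexible stalk that contacts translation factors and is also known to bind mitochondrial RNA polymerase, was at 64.4 CPM in tenotomy cells, against 29.8 CPM in sham cells (fold 2.16, 1.93 to 2.42). Mrpl34, Mrps7 and Mrps34 had folds of 2.41, 2.17 and 2.19. An exon of Mrps34 overlaps Nme3 on the same strand, so its reads are less certain. At the other end, Mrps6 was at 45.3 CPM in tenotomy cells, against 74.6 CPM in sham cells (fold 0.607, 0.548 to 0.672). Mrpl9, a large subunit protein with a bacterial counterpart, was at 14.7 CPM in tenotomy cells, against 19.6 CPM in sham cells (fold 0.749, 0.620 to 0.903).

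In blood endothelial-like cells all 78 genes were measured and 4 were at least 2-fold higher in tenotomy cells, beside 9.41% of all measured genes, and none was at least 2-fold lower, beside 9.04%. A count past 2-fold therefore does not set these genes apart, and the median fold was 1.47, against 0.981 over all measured genes. Mrpl54 was at 71.3 CPM in endothelial-like tenotomy cells, against 27.5 CPM in sham cells (fold 2.59, 2.27 to 2.96). Mrpl52, a mitochondria-specific large subunit protein, was at 167 CPM in tenotomy cells, against 65.7 CPM in sham cells (fold 2.54, 2.33 to 2.77). Mrpl12 was at 80.7 CPM in tenotomy cells, against 34.6 CPM in sham cells (fold 2.33, 2.07 to 2.63). The fourth gene past 2-fold was Mrps2, of the small subunit, named after its values were seen, with 33 UMIs in tenotomy cells and 31 in sham cells (fold 2.07, 1.23 to 3.49). Mrpl33, Mrpl34, Mrpl58, Mrpl36 and Mrpl20, named by the bound of their interval, had folds of 1.97, 1.90, 1.84, 1.78 and 1.76. The median was 1.5 for small subunit genes and 1.43 for large subunit genes. Mrps31 (fold 0.769, 0.615 to 0.955) and Mrpl9 (0.816, 0.680 to 0.974) were lower. Mrps6, lower in the myogenic-like, mesenchymal-like and monocyte/macrophage-like classes, was at 75.3 CPM in endothelial-like tenotomy cells, against 60.6 CPM in sham cells (fold 1.24, 1.11 to 1.38).

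In monocyte/macrophage-like cells all 78 genes were measured, 3 were at least 2-fold higher in tenotomy cells, beside 8.4% of all measured genes, and 2 at least 2-fold lower, beside 12.7%. The median fold was 1.31, against 0.984 over all measured genes. Mrpl54 was at 92.9 CPM in tenotomy cells, against 38.8 CPM in sham cells (fold 2.40, 1.96 to 2.96). Mrpl28, a large subunit protein with a bacterial counterpart, was at 73.1 CPM in tenotomy cells, against 34.0 CPM in sham cells (fold 2.15, 1.73 to 2.70). The third gene past 2-fold was Mrpl46, a large subunit protein named after its values were seen, with 19 sham UMIs (fold 2.04, 1.29 to 3.41). Mrpl52, Mrpl11, Mrps18a, Mrpl14 and Mrpl20, named by the bound of their interval, had folds of 1.98, 1.81, 1.76, 1.75 and 1.74, and Mrpl34 was just under 2-fold (1.6 to 2.53). In this class the median was 1.34 for 51 large subunit genes and 1.19 for 26 small subunit genes.

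Of 6 genes with an interval below 1 in monocyte/macrophage-like cells, Mrps6, Mrps27, Mrps5 and Mrps31 encode small subunit proteins. The other two, Mrpl24 and Mrpl49 (named for this count after its values were seen), encode large subunit proteins and had folds of 0.818 (0.712 to 0.943) and 0.672 (0.487 to 0.949). Mrps6 was at 34.1 CPM in tenotomy cells, against 81.1 CPM in sham cells (fold 0.420, 0.362 to 0.490). Mrps27, a pentatricopeptide repeat protein, was at 2.18 CPM in tenotomy cells, against 5.14 CPM in sham cells, from 13 sham UMIs (fold 0.423, 0.232 to 0.835). Mrps5, whose relative in the worm Caenorhabditis elegans is known for an effect on lifespan when reduced, was at 14 CPM in tenotomy cells, against 21.8 CPM in sham cells (fold 0.644, 0.486 to 0.869). Mrps31 was at 6.85 CPM in tenotomy cells, against 11.5 CPM in sham cells (fold 0.597, 0.404 to 0.913). An exon of Mrps6 overlaps Slc5a3, a gene for an inositol transporter, on the same strand, so its counts are less certain in every class. The same holds for Mrps24, which overlaps Urgcp.

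Across the 4 classes described gene by gene above (myogenic-like and mesenchymal-like, both non-cycling, blood endothelial-like and monocyte/macrophage-like), 38 of the 78 genes had an interval above 1 in all 4. Another 14 had one in 3 classes, 12 in 2 classes, 12 in 1 class and 2 in none. No share of all measured genes stands beside these counts, so they do not set the genes apart. An interval below 1 in at least 1 of these classes was found for 7 genes, in at least 2 for 3 (Mrps6, Mrps31 and Mrpl9), and in 3 for Mrps6. The 2 genes with none above 1 were Mrpl24 and Mrpl44, the second named after its values were seen and with under 25 UMIs in the myogenic class. Mrpl54 had an interval above 1 in each, with a fold of 2.53 (2 to 3.22) in myogenic-like cells, and Mrpl34 likewise. Mrps5 differed in direction between classes: it was at 70.4 CPM in myogenic-like tenotomy cells, against 24.3 CPM in sham cells (fold 2.90, 2.07 to 4.10), but at 0.644 of the sham level in monocyte/macrophage-like cells, and that contrast was not tested. Mrps36, the gene that is not a ribosomal subunit, had folds of 1.88 (1.39 to 2.56) in myogenic-like, 1.37 (1.21 to 1.55) in mesenchymal-like, 1.18 (1.02 to 1.37) in blood endothelial-like and 1.21 (0.992 to 1.49) in monocyte/macrophage-like cells.

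**Figure D4:**
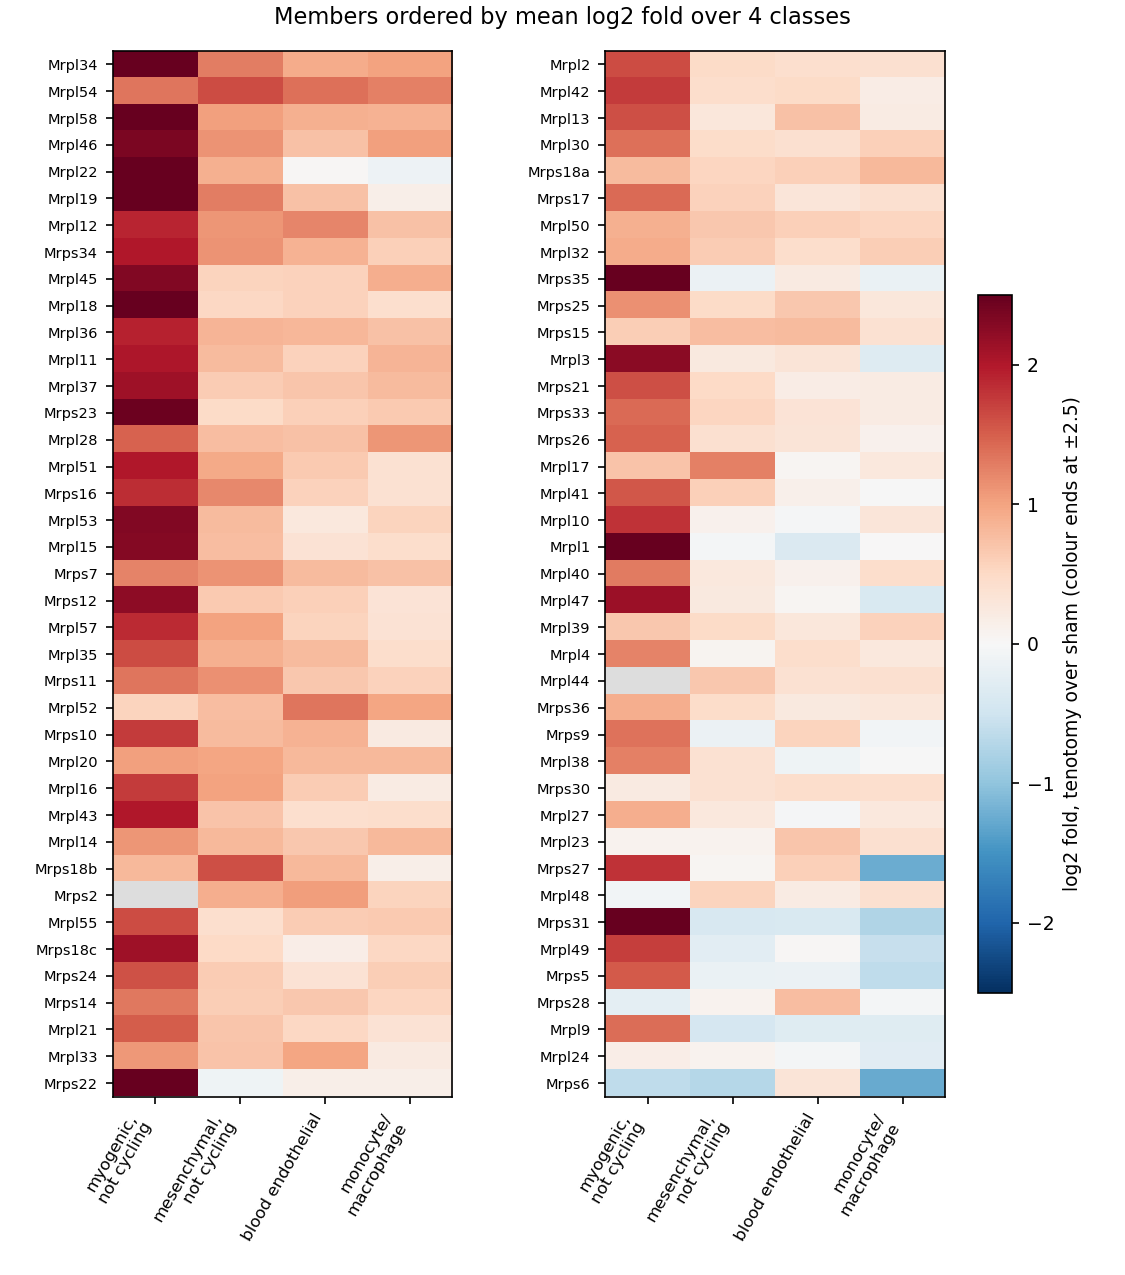
Each row is 1 mitochondrial ribosomal protein gene and each column 1 class, coloured by log2 fold (tenotomy over sham, red higher and blue lower, grey where the class holds under 25 UMIs), with rows ordered by the mean over the 4 classes. The myogenic column is red nearly throughout, and Mrps6, at folds of 0.648, 0.607, 1.24 and 0.420, closes the order.

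In the other compared classes fewer single genes could be told from 1. Of 74 genes measured in tenocyte-like cells, 1 was at least 2-fold higher in tenotomy cells and none at least 2-fold lower, where 6.28% and 9.55% of all measured genes were; the median fold was 1.19 against 0.989. Of 58 genes measured in pericyte or smooth muscle-like cells, 9 passed 2-fold upwards and none downwards, beside 9.11% and 10.9% of all measured genes, and the median fold was 1.32 against 0.954. After thinning to 1000 UMIs only 4 genes reached the limit in that class, with a median of 0.986. Of 73 genes measured in neutrophil-like cells, 9 passed 2-fold upwards and none downwards, beside 12.5% and 1.42% of all measured genes. Their median fold was 1.39 against 1.15, and 2.81 against 1.42 without cells above the 98th percentile of UMIs. Most single-gene intervals in these classes hold 1: 53 in tenocyte-like, 47 in pericyte or smooth muscle-like and 61 in neutrophil-like cells. Mrpl3, a large subunit protein at the peptide-forming core in bacteria, was at 15.1 CPM in tenocyte-like tenotomy cells, against 25.9 CPM in sham cells (fold 0.583, 0.352 to 0.927). Mrps6 was at 103 CPM in tenocyte-like tenotomy cells, against 160 CPM in sham cells (fold 0.641, 0.534 to 0.766). In neutrophil-like cells Mrpl58 was at 38.9 CPM in tenotomy cells, against 12.4 CPM in sham cells (fold 3.15, 1.38 to 8.85), from 6 sham UMIs, and Mrps28 was at 22.0 and 43.2 CPM in tenotomy and sham cells (fold 0.509, 0.295 to 0.903).

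Cell cycle state separated cells within the tenotomy library. In mesenchymal-like cells the summed share of cycling over non-cycling cells was 1.34 (1.32 to 1.35), the median fold 1.38 and that of all measured genes 1.03. Of the 78 genes, 67 had an interval above 1, and 2 were at least 2-fold higher, beside 5.45% of all measured genes, and none at least 2-fold lower, beside 5.83%. The interval of Mrps6 lay below 1 (fold 0.879, 0.786 to 0.984). In myogenic-like cells the summed ratio was also 1.34 (1.31 to 1.37), with a median of 1.34 against 1.08 over all measured genes. There 46 had an interval above 1 and 6 were at least 2-fold higher, beside 12.4%, and none at least 2-fold lower, beside 5.93%. Most of the set thus differed by less than 2-fold, and by unequal amounts. The standard deviation of the log2 folds was 0.226 in mesenchymal-like and 0.357 in myogenic-like cells, against 0.109 and 0.194 from counting error. Cycling cells were deeper, with medians of 24556.5 UMIs against 8606 in non-cycling mesenchymal-like cells and 21109 against 8920 in non-cycling myogenic-like cells.

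Mrpl18 stood out in both. It was at 124 CPM in cycling mesenchymal-like tenotomy cells, against 57.1 CPM in non-cycling ones (fold 2.17, 1.99 to 2.36), and at 193 CPM in cycling myogenic-like cells, against 77.8 CPM in non-cycling ones (fold 2.48, 2.05 to 3.03). Mrpl40, a mitochondria-specific large subunit protein, was at 53.6 CPM in cycling myogenic-like cells, against 19.5 CPM in non-cycling ones (fold 2.75, 1.88 to 4.18). Mrpl12 reached 295 CPM in cycling myogenic-like cells, against 169 CPM in non-cycling tenotomy cells and 45 CPM in non-cycling sham cells. Mrpl52, by contrast, was at 165 CPM in cycling mesenchymal-like cells, against 170 CPM in non-cycling ones (fold 0.969, 0.915 to 1.03). Mrpl48 was at 78.5 CPM in cycling myogenic-like cells, against 99.3 CPM in non-cycling ones (fold 0.790, 0.655 to 0.958).

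Tenotomy myogenic-like cells were also split by differentiation genes. Non-cycling cells with at least 2 UMIs of Myog, a transcription factor of differentiating myoblasts, or of Mymk, which encodes a fusion protein, had a summed share of 0.651% (0.633 to 0.669) in 47 cells, against 0.448% (0.433 to 0.464) in 88 cells without. Among cycling cells the shares were 0.753% (0.741 to 0.765) in 66 cells with these UMIs and 0.740% (0.731 to 0.748) in 178 cells without. Even the lowest of these values exceeded the 0.233% of non-cycling sham cells. The cycling intervals overlap. Non-cycling cells with these UMIs had a median depth of 15689 UMIs, against 6835 in those without. Between 4000 and 12000 UMIs only 5 of them were left, at 0.583% (0.512 to 0.661), against 0.408% (0.389 to 0.428) in 57 without. Cycling was likewise accompanied by a higher share in other tenotomy classes, with 0.411% in cycling monocyte/macrophage-like cells against 0.318% in the others, and 0.516% in cycling blood endothelial-like cells against 0.368% in the others. These values of the non-cycling tenotomy cells were still above the 0.256% and 0.273% of all sham cells of the 2 classes. The cycling cells were deeper in both, with medians of 9176 UMIs against 5936 in monocyte/macrophage-like and 10087 against 3098.5 in blood endothelial-like cells. What part depth had in these shares was not tested.

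Genes of related pathways place the set in context, and their lists were chosen with earlier results of these data known. Of 5 mitochondrial ribosome proteins with other symbols, 3 were at least 2-fold higher in non-cycling myogenic-like tenotomy cells, beside the 23.4% of all measured genes, with a median fold of 2.63. Gadd45gip1, a large subunit protein, was at 75.1 CPM in tenotomy cells, against 19.9 CPM in sham cells, and Aurkaip1, of the small subunit, was at 105 and 32.2 CPM in tenotomy and sham cells. Dap3, a small subunit protein that binds GTP, was at 68.4 CPM in tenotomy cells, against 42.8 CPM in sham cells. In mesenchymal-like cells the median of these 5 was 1.55.

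Transcripts for proteins that are imported alongside the ribosome behaved similarly in myogenic-like cells. Of 76 nuclear genes for oxidative phosphorylation subunits, 52 were at least 2-fold higher in non-cycling tenotomy cells and none at least 2-fold lower. Of all genes measured in that class, 23.4% were higher and 12.3% lower by that limit. The median of the oxidative phosphorylation genes was 2.56, against 1.19 over all measured genes. Of 23 import and folding genes, 13 were at least 2-fold higher, beside the same 23.4% of all measured genes, with a median of 2.45. Timm13, a chaperone of the intermembrane space, was at 268 CPM in tenotomy cells, against 49.9 CPM in sham cells, and Timm22, the carrier translocase channel, was at 55.7 and 8.83 CPM in tenotomy and sham cells. The chaperonin genes Hspd1 and Hspe1 had folds of 1.23 and 0.988. In mesenchymal-like cells the medians were 1.41 for oxidative phosphorylation and 1.54 for import, in blood endothelial-like cells 1.32 and 1.60, and in monocyte/macrophage-like cells 1.30 and 1.32.

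Other parts of mitochondrial gene expression were less uniform. Translation factors had a median of 1.78 over 8 measured genes in non-cycling myogenic-like cells, 0.953 in mesenchymal-like, 0.817 in blood endothelial-like and 0.991 in monocyte/macrophage-like cells; the mesenchymal and macrophage medians lie on the other side of 1 when divided by the median of all genes. Tufm, the mitochondrial elongation factor Tu, was at 55.7 CPM in myogenic-like tenotomy cells, against 15.4 CPM in sham cells, and at 34.2 and 17.5 CPM in mesenchymal-like tenotomy and sham cells. Tsfm, its exchange factor, was at 32.9 CPM in myogenic-like tenotomy cells, against 9.71 CPM in sham cells, but at 29.7 CPM in endothelial-like tenotomy cells, against 66.0 CPM in sham cells. Ribosome assembly genes had medians of 1.34, 1.08, 1.09 and 0.832 in those 4 classes, tRNA synthetases 1.57, 0.978, 1.34 and 0.875, and genes of mitochondrial DNA expression 2.04, 1.02, 1.11 and 0.985; dividing by the median of all genes turns the mesenchymal synthetase value to 1.07 and the macrophage value of the last list to just above 1. The summed share of some lists lay on the other side of 1 from the median: synthetases in blood endothelial-like cells at 0.796 (0.760 to 0.834), assembly genes at 0.966 in mesenchymal-like and 0.985 in endothelial-like cells, translation factors at 1.15 in mesenchymal-like and 1.09 in macrophage-like cells, and DNA expression genes at 1.02 in macrophage-like cells. For the assembly genes the intervals of these sums held 1 in both classes (0.913 to 1.02 and 0.924 to 1.05). In macrophage-like cells they held 1 for translation factors (0.948 to 1.26) and for DNA expression genes (0.924 to 1.14). Among the assembly genes, Mterf3 was at 10.8 CPM in mesenchymal-like tenotomy cells, against 19.1 CPM in sham cells, and at 13.4 and 28.3 CPM in endothelial-like tenotomy and sham cells.

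The cytosolic ribosome and the messages translated in mitochondria did not follow the myogenic difference. The median fold of 81 measured cytosolic ribosomal protein genes in non-cycling myogenic-like cells was 0.992, with none at least 2-fold higher, and their summed share was 24.6% in tenotomy cells and 24.5% in sham cells. In mesenchymal-like cells that median was 1.38 and in blood endothelial-like cells 1.55, both near the value of the mitochondrial ribosomal genes, and in monocyte/macrophage-like cells it was 1.05. The 13 mitochondrially encoded protein genes had medians of 1.03 in myogenic-like, 0.842 in mesenchymal-like, 0.919 in blood endothelial-like and 0.824 in monocyte/macrophage-like cells; the myogenic median became 0.865 when divided by the median of all genes, and the summed ratio in endothelial-like cells was 1.02.

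Known regulators of nuclear mitochondrial genes were mostly not higher. Over the 4 classes in the same order their medians were 0.787, 0.708, 0.865 and 0.798, and the summed ratio in blood endothelial-like cells was 1.02 (0.984 to 1.07). Nrf1, a transcription factor for mitochondrial genes, was at 14.1 CPM in non-cycling myogenic-like tenotomy cells, against 26.5 CPM in sham cells. Myc, a growth factor-induced transcription factor, was at 109 CPM in these tenotomy cells, against 453 CPM in sham cells, and at 104 CPM in mesenchymal-like tenotomy cells, against 338 CPM in sham cells, but at 76.6 CPM in endothelial-like tenotomy cells, against 29.8 CPM in sham cells. Esrra, a nuclear receptor for mitochondrial genes, was at 15.4 CPM in myogenic-like tenotomy cells, against 2.65 CPM in sham cells (fold 5.83, 2.31 to 17.5). Ppargc1b, a coactivator, had 23 UMIs in these tenotomy cells, against 3 in sham cells (fold 11.7, 3.52 to 60.6).

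**Figure D5:**
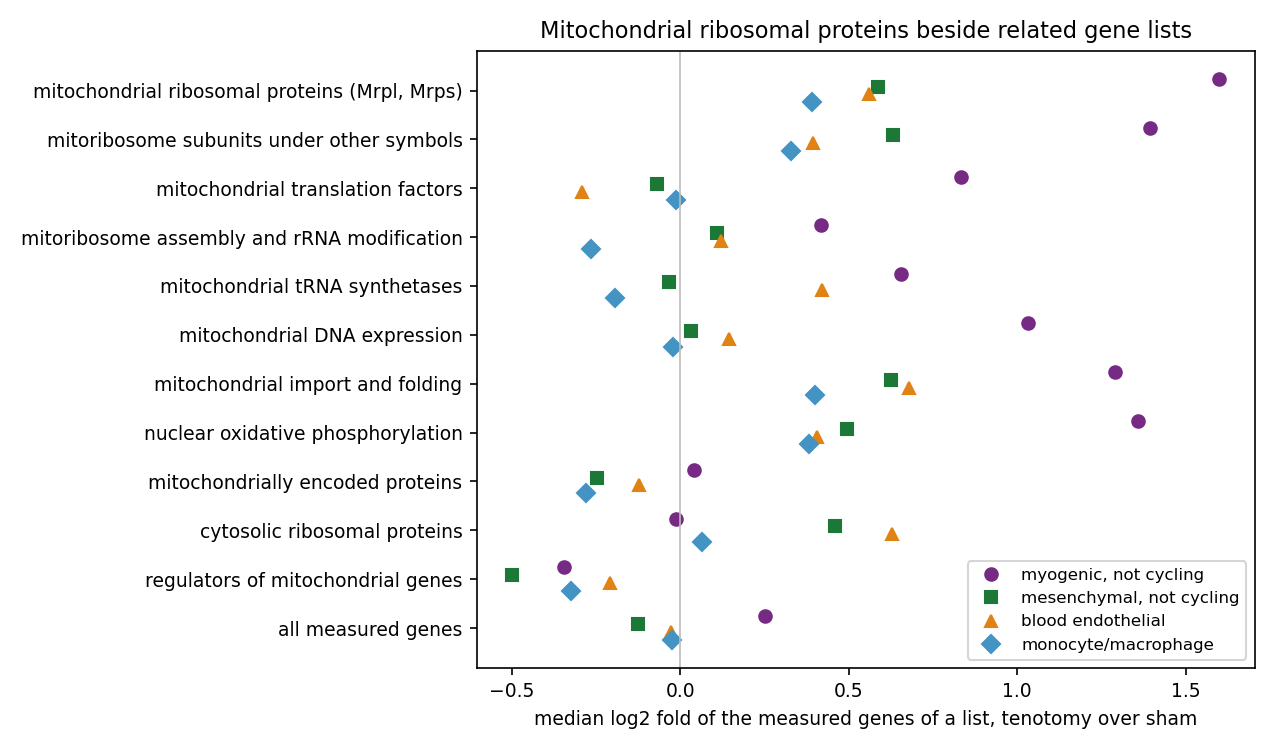
Each symbol is the median log2 fold (tenotomy over sham) of the measured genes of 1 list in 1 class, with lists of under 5 measured genes left out. In myogenic-like cells (circles) the mitochondrial ribosomal, import and oxidative phosphorylation lists lie at median folds of 3.03, 2.45 and 2.56, and cytosolic ribosomal and mitochondrially encoded genes lie at 0.992 and 1.03.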

How the data were processed

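The data are unique molecular identifier counts per gene and barcode from 1 tenotomy and 1 sham library, as deposited by the authors and not normalized. Reads were processed with Cell Ranger 4.0.0 on mm10, per the submitters' processing notes; no source used here names the annotation. Identifiers were matched to symbols with GENCODE M21 (32158 of 32285). Cells needed 300 genes, 500 UMIs and at most 10% mitochondrial UMIs. A class needed 3 distinct markers and 2 more than any other class, each marker counted only at 0.5 or more times its mean library share. Cells with markers of 2 classes were left out, and no doublet caller was run. Classes were compared with 50 cells or more in both libraries, and genes with 25 UMIs or more in the class. A class's UMIs were summed per library and scaled to its total. Intervals are exact: Clopper-Pearson for shares and conditional binomial for ratios of sums, at 95%. They cover counting error only.

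The genes, lists and naming rule were chosen with earlier results of these data known. Named were, in the non-cycling myogenic-like and mesenchymal-like, blood endothelial-like and monocyte/macrophage-like classes, up to 8 genes with the highest and 4 with the lowest fold ranked by the interval bound nearest to 1, the 8 with most UMIs, those outside 2-fold of the set's median, 7 fixed genes, and up to 3 genes of each list. Computations used Python 3.11.15, numpy 2.4.6, scipy 1.17.1, pandas 2.3.3 and matplotlib 3.10.9 and were checked on simulated data.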

Additional observations from a re-analysis of the deposited data

Results flagged for a closer look

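Each gene below had a ratio of tenotomy to sham above 1 in 1 class and below 1 in another, with a difference of at least 1.5-fold each way and counting intervals wholly on opposite sides of 1. Each class has 1 library per group, so the difference between classes was not tested. Mrps5 was at a fold of 2.90 in non-cycling myogenic-like cells and 0.644 in monocyte/macrophage-like cells. Mrps31 was at 5.80 in myogenic-like cells and 0.597 in monocyte/macrophage-like cells, with 11 and 29 sham UMIs. Mrps27 was at 3.5 in myogenic-like and 1.51 in blood endothelial-like cells, and at 0.423 in monocyte/macrophage-like cells, with 10, 76 and 13 sham UMIs. Mrpl3 was at 4.77 in myogenic-like cells and 0.583 in tenocyte-like cells. Mrps28 was at 1.70 in blood endothelial-like cells and 0.509 in neutrophil-like cells, the last with 21 sham UMIs.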

How the results depend on the processing

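No paired analysis was possible because each group is 1 library of pooled muscles, and for the same reason no replicate could be left out. Below, each value is a ratio of tenotomy to sham: "sum" is the ratio of summed shares and "median" the median fold of the genes, and counts are of genes at least 2-fold higher or lower. Sums stayed above 1 under every setting listed, with ranges of 1.84 to 2.58 in myogenic-like, 1.30 to 1.67 in mesenchymal-like, 1.28 to 1.54 in blood endothelial-like and 1.19 to 1.40 in monocyte/macrophage-like cells. The only direction that turned was the pericyte or smooth muscle-like median, 0.986 over the 4 genes still measured after thinning to 1000 UMIs. A count with no share of all genes beside it does not set the genes apart. The causes of the changes were not tested.

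Among cells of 4000 to 12000 UMIs, a range chosen after seeing the data, the mesenchymal-like sum was 1.30 and the median 1.25. There 3 of 78 genes were higher, beside 5.98% of all genes. The myogenic-like sum was 1.84 and the median 1.90, with 25 of 61 higher, beside 15.5%. The tenocyte-like sum was 1.13, with 2 of 70 higher and 2 lower, beside 6.25% and 9.17%. The macrophage-like sum was 1.40 and the median 1.36, with 7 of 78 higher, beside 10.2%. The neutrophil-like sum was 2.42 and the median 2.69, with 17 of 25 measured higher, beside 31.1% of all genes. In endothelial-like cells 1 of 78 was lower, beside 9.52%, and in pericyte-like cells 5 of 33 were higher, beside 10%. After thinning to 1000 UMIs, sums were 1.36 mesenchymal-like, 2.27 myogenic-like, 1.31 endothelial-like, 1.11 pericyte-like and 1.19 macrophage-like. Medians were 1.31, 1.91, 1.26, 0.986 and 1.17 in that order. Counts higher, with the share of all genes, were 7 of 70 mesenchymal-like (6.79%), 7 of 15 myogenic-like (15.3%) and 3 of 23 tenocyte-like (5.67%). Another 3 of 10 were higher in neutrophil-like cells (14.5%) and 1 of 4 in pericyte-like cells (8.62%). In endothelial-like cells 5 of 76 were higher (6%), and in macrophage-like cells 4 of 76 (12.8%). Counts lower were 2 of 76 endothelial-like (7.44%), 4 of 76 macrophage-like (11.7%), 1 of 10 neutrophil-like (5.96%) and 1 of 4 pericyte-like (9.23%). Without cells above the 98th percentile of UMIs the tenocyte-like sum was 1.13, and the neutrophil-like sum was 2.68, its median 2.81 and 49 of 69 measured higher, beside 33.4% of all genes, whose median was 1.42. As a mean of the share per cell, ratios were 1.36 mesenchymal-like, 1.10 tenocyte-like, 2.14 myogenic-like, 1.28 endothelial-like, 1.14 pericyte-like and 1.23 macrophage-like.

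Divided by the median fold of all genes, the mesenchymal-like sum was 1.67 and median 1.64, the myogenic-like sum 2.0 and median 2.55, and the endothelial-like sum 1.47. There the macrophage-like count was 5 higher, and neutrophil-like cells had sum 1.11, median 1.21, 4 higher and 1 lower. Scaled without mitochondrially encoded, cytosolic ribosomal and haemoglobin genes, sums were 1.63 mesenchymal-like, 1.25 tenocyte-like and 1.54 endothelial-like, and medians 1.26 tenocyte-like and 1.57 endothelial-like. Scaled without the 100 most abundant genes, sums were 1.57 mesenchymal-like, 2.27 myogenic-like and 1.17 neutrophil-like, with 0 higher in tenocyte-like and 1 lower in neutrophil-like cells. Without the 5 most counted genes, sums were 2.58 myogenic-like, 1.38 endothelial-like and 1.28 macrophage-like.

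With 4 distinct markers needed, the macrophage-like sum was 1.35 and the neutrophil-like sum 1.15, median 1.25 and 1 lower. With at most 1 marker of another class, also chosen after seeing the data, sums were 1.56 mesenchymal-like, 1.15 pericyte-like and 1.36 macrophage-like. There the pericyte-like median was 1.03 with 1 higher and 1 lower, 6 were higher in macrophage-like cells, and neutrophil-like cells had 4 higher and 1 lower. With genes from 10 UMIs, 2 were lower in tenocyte-like and 2 in pericyte-like cells. With genes from 100 UMIs, counts higher were 0 tenocyte-like, 2 pericyte-like and 1 neutrophil-like, and 1 was lower in macrophage-like cells.

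With cycling called from 1 UMI the mesenchymal-like sum was 1.5, and from 4 UMIs it was 1.60 and the myogenic-like sum 2.5. From 4 UMIs, cycling over non-cycling sums were 1.31 mesenchymal-like and 1.29 myogenic-like. With cells thinned before the cycle genes were counted, the cycling over non-cycling median was 1.31 mesenchymal-like, and in myogenic-like cells the sum was 1.25 and the median 1.24. Leaving out Mrps36 or the limit on mitochondrial UMIs moved none of these values beyond its counting interval or 1.5 times its count.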

Other observations

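Classes with too few cells for a comparison also held these transcripts. B cell-like cells had a summed share of 0.482% (0.463 to 0.501) in 200 tenotomy cells, against 0.489% (0.461 to 0.518) in 43 sham cells. Glial-like cells had 0.395% (0.358 to 0.435) in 27 tenotomy cells, against 0.371% (0.350 to 0.393) in 63 sham cells. In both classes the intervals of the libraries overlap. In the tenotomy library alone, the share was 0.326% in 109 dendritic-like cells, 0.360% in 33 T or natural killer-like cells and 0.360% in 114 erythroid-like cells. Median depth was 1826 UMIs in B cell-like tenotomy cells, against 3457 UMIs in sham cells. In some of these classes markers of another class exceeded the class's own markers that were not used to define it. Dendritic markers summed to 4293 CPM in T or natural killer-like tenotomy cells, against 1426 CPM of their own. In B cell-like sham cells these were 12583 and 10492.5 CPM. In glial-like sham cells monocyte/macrophage markers summed to 4529 CPM, against 3062 CPM of their own.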
